A study of Mus musculus with 8 samples.

Results

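The nuclear genes for the subunits of oxidative phosphorylation were followed here in blood stem and progenitor cells that carried or lacked Tet1, a gene for an enzyme that oxidizes 5-methylcytosine in DNA. They were taken by symbol: the Ndufa, Ndufb, Ndufc, Ndufs and Ndufv genes, Sdha to Sdhd, the Uqcr genes, the Cox genes numbered 4 to 8 and the Atp5 genes. This gave 80 genes, all present among the 19685 genes listed for long-term hematopoietic stem cells (LT-HSC) and the 18904 listed for multipotent progenitors (MPP). By textbook function 35 are subunits of complex I, 4 of complex II, 8 of complex III, 14 of complex IV and 14 of complex V. The other 5 are not subunits or are pseudogenes: Cox7a2l, Atp5s, Atp5sl, Atp5l2 and Atp5l-ps1.

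The 8 poly(A) RNA libraries, from flow-sorted mouse bone marrow, form 4 groups of 2, namely KO and WT LT-HSC and KO and WT MPP. KO cells came from mice that had received Tet1 knockout marrow 20 weeks before, and WT cells from mice that had received wild-type marrow at the same time. All groups thus came from transplanted mice, with an age of 6 months and the strain CD57BL/6 as the labels spell it. Each library was made from 10000 cells for LT-HSC and 100000 for MPP. The knockout allele, the sort gates, the number of donors and recipients and the host cells that remained are not stated in the labels. The labels do not state either whether the libraries of a group came from separate animals, so p-values measure the spread between these libraries, which may be technical. In such bulk samples fewer cells of a type and less RNA per cell cannot be told apart.

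Oxidative phosphorylation runs in the inner mitochondrial membrane. Complexes I and II pass electrons from NADH and succinate to ubiquinone, complex III passes them to cytochrome c and complex IV to oxygen. Complexes I, III and IV pump protons, and complex V, the ATP synthase, makes ATP as the protons flow back. Most subunits are encoded in the nucleus and a few core ones in mitochondrial DNA, and the mitochondrially encoded genes were not analysed here. Long-term stem cells are known to rely largely on glycolysis while at rest and to use more mitochondrial respiration as they divide and differentiate.

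Library totals were 5059917 and 5356505 counts for LT-HSC KO and 4976459 and 5479731 for LT-HSC WT. They were 12400764 and 12504581 for MPP KO and 11928659 and 12030265 for MPP WT. Tet1, read over its whole gene, was counted 336 and 379 times in LT-HSC KO, against 332 and 428 times in LT-HSC WT, a log2 fold change of -0.09 (SE 0.19) with an adjusted p of 0.765. In MPP it was lower in KO (log2 fold change -0.62, SE 0.09, adjusted p = 0.0282). Tet1 counts thus did not separate the LT-HSC libraries labelled KO from those labelled WT, and which exons the deletion removes is not given. The summed level of 4 Y-linked genes was 12.3 to 14.4 CPM (counts scaled to the library total) in LT-HSC KO against 143 to 177 CPM in LT-HSC WT, and 2.88 to 5.56 CPM in MPP KO against 166 to 174 CPM in MPP WT. The Y-linked level and the genotype therefore cannot be told apart in any KO against WT comparison. In WT cells, 9 of 11 tested LT-HSC markers were higher in LT-HSC and 7 of 7 progenitor markers were lower. Of 7 tested megakaryocyte markers 7 were higher, at 1360 to 1440 CPM in LT-HSC WT against 163 to 188 CPM in MPP WT. Of 7 tested granulocyte and monocyte markers 6 were lower, and Ngp and S100a8 were at 0 in LT-HSC WT. Of 13 erythroid markers 3 were higher and 3 lower, and of 7 endothelial and stromal markers 3 and 3.

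Promoter windows, from 250 bases before to 50 after the start of the gene, were available from RefSeq (GRCm38.p6) for 64 of the 80 genes, in 69 windows. The 4 shown belong to Ndufa1, the gene that fell in LT-HSC KO, to Ndufb7 and Ndufc1, which rose there, and to Sdhd, which was lower in WT LT-HSC than in WT MPP. Capitals mark letters that match a searched motif on either strand.
Ndufa1: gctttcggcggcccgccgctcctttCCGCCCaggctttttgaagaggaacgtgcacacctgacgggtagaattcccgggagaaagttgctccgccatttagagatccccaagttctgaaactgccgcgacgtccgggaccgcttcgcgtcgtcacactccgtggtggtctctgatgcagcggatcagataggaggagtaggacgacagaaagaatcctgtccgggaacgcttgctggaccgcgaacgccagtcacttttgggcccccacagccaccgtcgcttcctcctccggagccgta
Ndufb7: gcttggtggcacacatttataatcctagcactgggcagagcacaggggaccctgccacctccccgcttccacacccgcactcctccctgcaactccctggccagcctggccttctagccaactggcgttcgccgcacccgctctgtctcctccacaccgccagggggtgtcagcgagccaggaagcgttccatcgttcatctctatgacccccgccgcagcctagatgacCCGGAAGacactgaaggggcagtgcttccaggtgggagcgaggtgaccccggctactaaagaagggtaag
Ndufc1: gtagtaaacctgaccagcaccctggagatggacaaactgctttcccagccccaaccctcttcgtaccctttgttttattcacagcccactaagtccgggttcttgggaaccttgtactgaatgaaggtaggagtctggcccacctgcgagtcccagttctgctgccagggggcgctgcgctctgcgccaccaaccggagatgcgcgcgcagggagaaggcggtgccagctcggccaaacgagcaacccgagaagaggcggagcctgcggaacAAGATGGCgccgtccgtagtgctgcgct
Sdhd: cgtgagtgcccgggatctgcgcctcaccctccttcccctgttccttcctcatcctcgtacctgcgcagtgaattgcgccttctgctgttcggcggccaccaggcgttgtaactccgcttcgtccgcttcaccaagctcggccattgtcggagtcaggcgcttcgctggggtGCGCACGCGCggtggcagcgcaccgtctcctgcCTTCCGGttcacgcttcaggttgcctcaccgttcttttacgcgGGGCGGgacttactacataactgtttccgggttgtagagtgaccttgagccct
The Ndufa1 window lies at chrX:37191189-37191488 on the minus strand and holds an SP/KLF match (GGGCGG). That of Ndufb7 is at chr8:83566508-83566807 on the plus strand and holds an ETS/GABP match (CCGGAAG). That of Ndufc1 is at chr3:51408906-51409205 on the minus strand and holds a YY1 match (AAGATGGC). That of Sdhd, at chr9:50603800-50604099 on the minus strand, holds NRF1 (GCGCA, any base, then GCGC), ETS/GABP and SP/KLF matches.

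NRF1, GABP and YY1 are factors long tied to the transcription of nuclear respiratory genes. The NRF1 letters were in 26.1% of the windows of the oxidative phosphorylation genes, 7.56% of 15539 windows of genes in the tables and 4.6% of all 32851 windows. The ETS/GABP letters were in 23.2%, 13.3% and 8.86% of the same sets, and the YY1 letters in 13%, 3.45% and 2.75%. The SP/KLF letters were in 37.7% of the windows of these genes, below the 53.9% of windows of genes in the tables. An E-box (CACGTG) was in 8.7%, against 8.93%. The NRF1 matches lay in 7 of 31 complex I genes and 6 of 12 complex V genes but in 1 of 12 complex IV genes. YY1 matches lay in 7 complex I and 2 complex V genes. The NRF1, ETS/GABP, SP/KLF and E-box letters hold a CpG, and those of YY1 do not. The median window of the oxidative phosphorylation genes held 19 CpG, against 17 over genes in the tables and 7 over all windows. The lower quartile was 15 CpG against 6 and 3. Of the windows, 95.7% held 10 or more CpG, against 66.9% and 43.5%, so the sets compared differ in CpG content. Its part in the motif shares was not tested. A match is a description of letters and was not tested as a binding site.

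**Figure D1:**
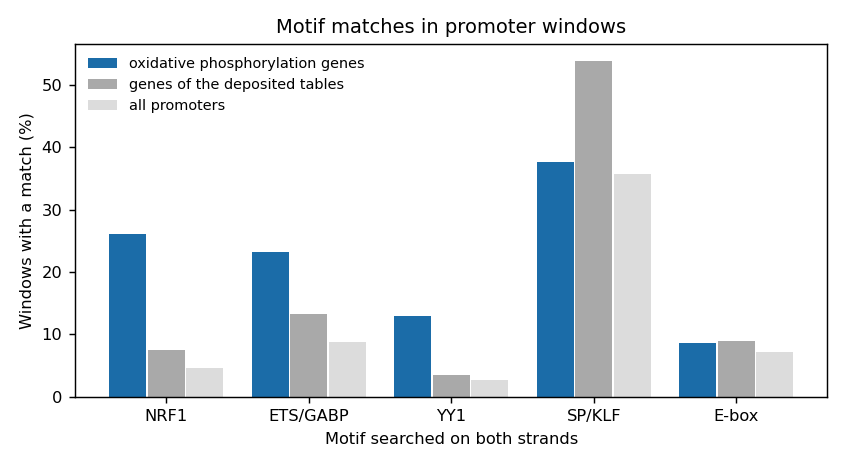
Share of promoter windows (%) that hold each motif on either strand, for the oxidative phosphorylation genes (69 windows), genes of the deposited tables (15539) and all RefSeq promoters (32851). The NRF1, ETS/GABP and YY1 bars are higher for the oxidative phosphorylation genes, and the SP/KLF bar is below that of genes in the tables.

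Together the 80 genes held 0.374 to 0.531% of all counts, and none was at 0 in any library. Their summed level was 5135 and 4166 CPM in LT-HSC KO and 5313 and 4207 CPM in LT-HSC WT, in the order of replicates 1 and 2. In MPP it was 4106 and 3742 CPM in KO and 4542 and 4225 CPM in WT. The sums of LT-HSC KO and WT overlapped, while both MPP KO sums lay below both MPP WT sums. The highest gene of each complex was Ndufa12 for complex I (mean of 8 libraries 111.8 CPM), Sdha for II (223.5 CPM), Uqcrc1 for III (143.8 CPM), Cox8a for IV (169 CPM) and Atp5a1 for V (609.4 CPM). Cox7a2l, an assembly factor of respiratory supercomplexes, led the rest at 69.6 CPM.

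Levels were also divided by length, as mean CPM per kb of exon, with the exons of all annotated transcripts of a gene merged. The merged length is not that of a single mRNA: for Atp5l it was 6.443 kb in a gene span of 7.493 kb. The values below therefore depend on the annotation as well as on the level. The median was 21.3 CPM per kb for complex I, 38.9 for II, 31.5 for III, 16.4 for IV and 18 for V. Within complex IV the range was widest, between 1.66 CPM per kb for Cox7a1, the heart and muscle isoform, and 273 for Cox8a. Atp5a1, the catalytic-ring alpha subunit, had 194 CPM per kb. Cox6a1 and Cox6b1, the ubiquitous isoforms, had 136 and 133 CPM per kb, and Cox6b2 and Cox7b2, isoforms known from testis, had 14.8 and 4.76.

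The libraries numbered 1 and 2 differed in the same way in all 4 groups. Uqcr11, a small complex III subunit, had 4.9 CPM in replicate 1 and 24.1 CPM in replicate 2 of LT-HSC KO, and 2.9 and 19.9 CPM in LT-HSC WT. In MPP it had 4.7 and 15.6 CPM in KO and 6.1 and 16.6 CPM in WT. Replicate 2 was thus the higher library in every group, and the same held for Cox6c, Cox5b and Uqcrb. Ndufb8, Ndufb10, Ndufa12 and Atp5c1 were higher in replicate 1 in every group.

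Of the 75 oxidative phosphorylation genes with a mean of at least 5 CPM, 33 were higher in replicate 1 in all 4 groups and 20 higher in replicate 2, together 70.7%. Over all 12307 genes at that level the share was 49.6%. The median absolute gap on the log2(CPM + 0.5) scale was 0.416 in LT-HSC KO, 0.482 in WT LT-HSC, 0.239 in MPP KO and 0.23 in MPP WT for the oxidative phosphorylation genes. Over all genes it was 0.226, 0.3, 0.137 and 0.123 in the same order. Across genes, the gaps of any 2 groups correlated at 0.726 to 0.878 over the 80 genes and at 0.535 to 0.754 over the 12307, a description of genes that share libraries. Over the 80 genes, the rank correlation of the gaps with the length of the longest GENCODE M21 transcript was between -0.004 and 0.184. With the GC content of that transcript it was between 0.135 and 0.27. What the number marks is not given in the labels. Each comparison was therefore also fitted with the replicate number as a block, which leaves 1 residual degree of freedom where each population was fitted alone.

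**Figure D2:**
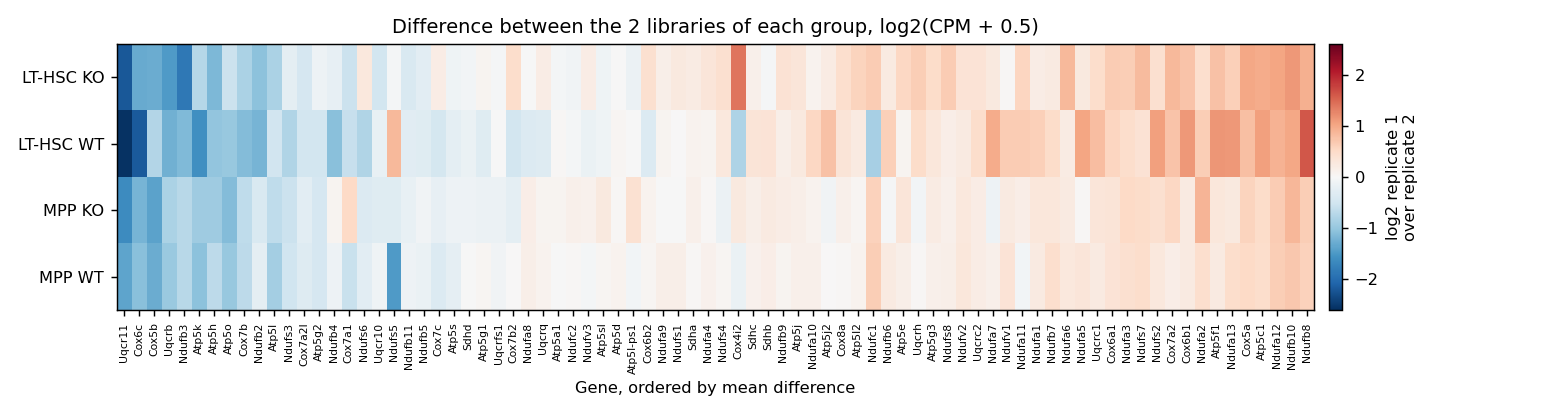
Log2 difference of replicate 1 over replicate 2, on the log2(CPM + 0.5) scale, for each of the 80 genes (columns, ordered by mean difference) in the 4 groups (rows). The blue left end (Uqcr11, Cox6c, Cox5b) and the red right end (Ndufb10, Ndufb8) have the same colour in all 4 rows.

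**Figure D3:**
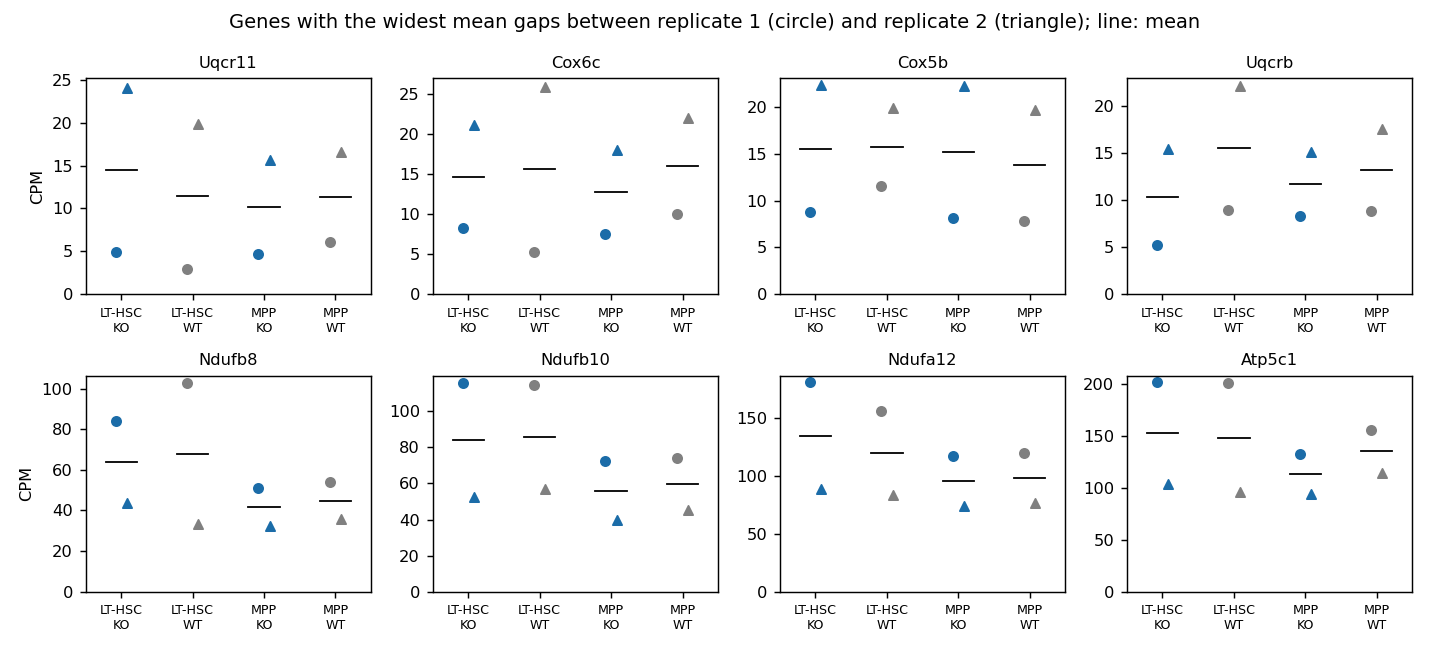
CPM of the 4 genes with the widest mean gap in each direction, by group, with circles for replicate 1, triangles for replicate 2 and lines for the mean. Triangles lie above circles in all groups for Uqcr11, Cox6c, Cox5b and Uqcrb, and below them for Ndufb8, Ndufb10, Ndufa12 and Atp5c1.

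In LT-HSC, 7 of the 77 genes tested rose in KO (9.09%) and 1 fell (1.3%), by edgeR's quasi-likelihood test with Benjamini-Hochberg adjustment over all 15684 genes and a threshold of 0.05. Over all genes tested, 22.5% rose and 10.9% fell, and both shares of the oxidative phosphorylation genes lie below these. In this fit all 8 belonged to complexes I and IV, which did not hold with the replicate block. Ndufb2 and Cox7b2 reached the count needed for testing in both libraries of KO but not of WT, so they could enter the test only by being higher in KO, and their rises are a description; the other 5 rises and the fall reached it in both groups. The median log2 fold change was -0.04 over the 77 genes and 0.03 over all genes, and the median absolute value was 0.27 against 0.5. With abundant genes, above a mean log2 CPM of 6, the median of all genes was -0.18, and centring on those genes moved the median of the 77 to 0.15 and that of all genes to 0.21. Cox4i2, Cox7a1 and Ndufs5 were too low to test, with 2 to 21 counts in each LT-HSC library. Where called genes are said below not to overlap between groups, this is a description, and the share of all genes without overlap is not given here.

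Complex I gave 4 rises and 1 fall among 34 genes tested. Ndufs1, the large iron-sulphur subunit of the matrix arm, had 60.7 and 50.8 CPM in LT-HSC KO against 22.8 and 22.7 CPM in LT-HSC WT. Its log2 fold change was 1.29 (SE 0.21, adjusted p = 0.00259). Both KO libraries lay above both WT libraries, and the rise passed the test in all 13 alternatives run. Ndufb7, an accessory subunit of the membrane arm, had 71.1 and 60.1 CPM in KO against 41.6 and 29.9 CPM in WT (log2 fold change 0.86, SE 0.24, adjusted p = 0.0242). Ndufc1, another accessory subunit, had 22.4 and 14 CPM in KO against 4.7 and 9 CPM in WT (log2 fold change 1.42, SE 0.40, adjusted p = 0.0261). Neither overlapped, but Ndufb7 had an adjusted p of 0.204 and Ndufc1 of 0.255 without LT-HSC KO replicate 1, and Ndufb7 of 0.0574 without LT-HSC WT replicate 2.

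Ndufb2, also of the membrane arm, was low, with 6.5 and 14.2 CPM in LT-HSC KO (35 and 72 counts) against 1.3 and 3.6 CPM in LT-HSC WT (7 and 18 counts). The log2 fold change was 2.09 (SE 0.58, adjusted p = 0.0237), and the groups did not overlap. Without LT-HSC KO replicate 2 the log2 fold change was 1.47 and the adjusted p 0.229. Ndufa1, an accessory subunit encoded on the X chromosome (mm9 chrX:34727583-34731158, minus strand), was the gene that fell. It had 10.3 and 8.9 CPM in LT-HSC KO against 35.2 and 22.9 CPM in LT-HSC WT, and its log2 fold change was -1.61 (SE 0.32, adjusted p = 0.00574). Both KO libraries were below both WT libraries, and the fall passed the test in all 13 alternatives.

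Complex IV gave 3 rises among 12 genes tested: Cox6b2 and Cox7b2, isoforms known from testis, and Cox7c. Cox6b2 had 34.9 and 25.9 CPM in LT-HSC KO against 7.8 and 10.2 CPM in LT-HSC WT (log2 fold change 1.76, SE 0.29, adjusted p = 0.00264). Its ubiquitous counterpart Cox6b1 had 131 and 78.3 CPM in KO against 180 and 81.6 CPM in WT, which overlap (log2 fold change -0.34, SE 0.39, adjusted p = 0.552). Cox7b2 had 55 and 37 counts in KO, or 10.3 and 7.3 CPM, against 4 and 6 counts in WT, or 0.7 and 1.2 CPM. Its log2 fold change was 3.17 (SE 0.53, adjusted p = 0.00279), for a gene that reached the count for testing in KO alone. Its counterpart Cox7b had 14 and 25.1 CPM in KO against 12.4 and 27.7 CPM in WT (log2 fold change -0.03, SE 0.39, adjusted p = 0.967), again with overlap.

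Long genes with few counts in MPP held more counts in the LT-HSC KO than in the LT-HSC WT libraries. The data are totals per gene, so where the reads lay within a gene is not known. Over 57 genes of at least 50 kb with at most 3 counts in all MPP libraries together, there were 0.281 and 0.27 counts per kb of span in LT-HSC KO against 0.0253 and 0.0278 in LT-HSC WT. The Cox7b2 model spans 105.4 kb (mm9 chr5:71834063-71939444), and this rate times its span equals 63.1% of its KO count. The Cox6b2 model spans 1.3 kb (mm9 chr7:4703396-4704696). With the rate subtracted, a step chosen after seeing the data, Cox7b2 no longer passed the filter on low counts, Ndufb2 had an adjusted p of 0.0577, and 5 genes rose and 1 fell. The rate is called the background rate below. Whether it accounts for any part of the rise of Cox7b2 was not tested.

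Cox7c, a small structural subunit of complex IV, had 19.6 and 17 CPM in LT-HSC KO against 6.6 and 9.2 CPM in LT-HSC WT (log2 fold change 1.22, SE 0.31, adjusted p = 0.0178). The groups did not overlap, but the adjusted p was 0.168 without LT-HSC KO replicate 1 and 0.0568 without LT-HSC KO replicate 2. Ndufa4, now counted as a complex IV subunit, had 68.9 and 55.5 CPM in KO against 46.7 and 44.4 CPM in WT (log2 fold change 0.45, SE 0.2, adjusted p = 0.123). The adjusted p was 0.904 for Cox6a1 (log2 fold change -0.06, SE 0.29), 0.758 for Cox7a2 (0.17, SE 0.37) and 0.792 for Cox8a (0.09, SE 0.22). Cox4i1, the partner isoform of Cox4i2, was not analysed here.

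In complexes II, III and V and among the genes that are not subunits, no gene passed the test in LT-HSC by edgeR without the block or by DESeq2. With the replicate block 2 higher and 2 lower genes passed in complex II, 2 higher in complex III, 2 higher and 3 lower in complex V, and 3 lower among those that are not subunits. Without the block, at an unadjusted p under 0.05, there was 1 lower gene in complex II, 2 higher genes in complex V and 1 lower gene among those that are not subunits. The share of all genes at that unadjusted threshold is not given here. Sdha, the flavoprotein of complex II, had 237 and 204 CPM in KO against 272 and 256 CPM in WT (log2 fold change -0.26, SE 0.17, adjusted p = 0.282). Uqcrc1, a core protein of complex III, stood at 0.21 on the log2 scale (SE 0.29, adjusted p = 0.631), and Atp5a1 at -0.18 (SE 0.16, adjusted p = 0.443). The value was -0.46 for Cox7a2l (SE 0.21, adjusted p = 0.129) and, in complex I, 0.16 for Ndufa12 (SE 0.39, adjusted p = 0.786). Atp5g1, Atp5g2 and Atp5g3 encode the same mature c subunit of the ATP synthase rotor, and their log2 fold changes were 0.53 (SE 0.23), -0.45 (SE 0.24) and -0.18 (SE 0.22). Atp5o had the largest fold change of complex V, 1.27 (SE 0.48, adjusted p = 0.0737). Its model spans 247.3 kb, and the background rate times this span equals 157% of its KO count, more than was counted. How reads that match pseudogenes of these genes were counted is not stated.

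With the replicate number as a block, 18 genes rose and 16 fell in LT-HSC KO, against 30.7% and 25.6% of all genes. They include all 7 and the 1 called without the block. Complex I held 8 of the rises and 7 of the falls, and complex IV 4 and 1, with the others in complexes II, III and V and among the genes that are not subunits. Sdha (adjusted p = 0.00198), Atp5a1 (adjusted p = 0.0133) and Cox7a2l (adjusted p = 0.00196) were lower with the block, and Uqcrc1 (adjusted p = 0.0262), Uqcrfs1 (adjusted p = 0.0129) and Ndufa4 (adjusted p = 0.00508) higher. Cox6b1 was lower with the block (adjusted p = 0.0179) and Cox7b did not pass (adjusted p = 0.988). Atp5g1 was higher (adjusted p = 0.0193), Atp5g2 lower (adjusted p = 0.048) and Atp5o higher (adjusted p = 0.00853). Their absolute log2 fold changes ran between 0.237 and 3.16 for the rises, with a median of 0.703, and between 0.174 and 1.59 for the falls, with a median of 0.444. In the authors' deposited table, at an FDR under 0.05, 9 of the 80 genes were higher in LT-HSC KO and 1 lower, against 5418 and 1668 of 19685 genes.

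**Figure D4:**
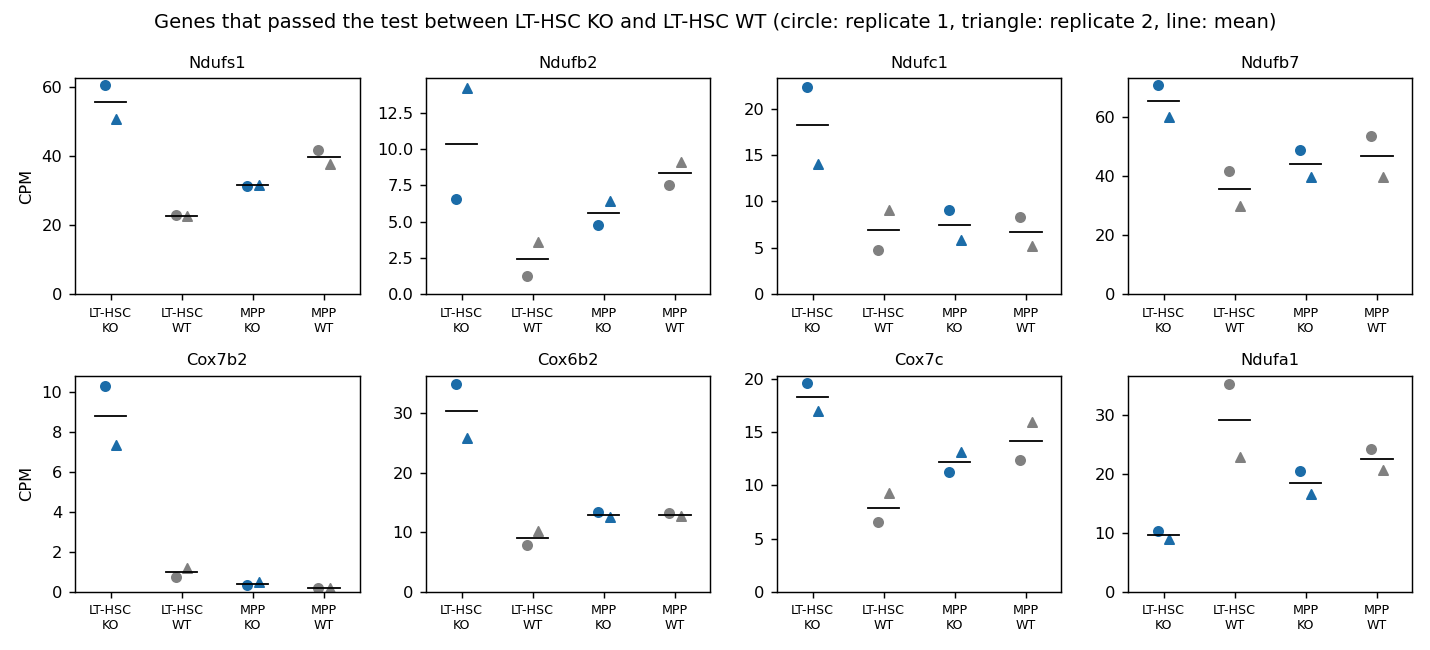
CPM of the 8 genes that passed the test between LT-HSC KO and LT-HSC WT, by group (circle for replicate 1, triangle for replicate 2, line for the mean, each axis starting at 0). In LT-HSC the KO points lie above the WT points for 7 genes and below them for Ndufa1.

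Markers of other cells moved with the LT-HSC genotype. Of 13 tested erythroid markers 13 were higher in LT-HSC KO, with a summed level of 5590 to 6370 CPM in KO against 1440 to 1590 CPM in WT. Of 12 tested endothelial and stromal markers 8 were higher, at 583 to 751 CPM in KO against 146 to 150 CPM in WT, where Cxcl12 was at 0. Of 7 tested megakaryocyte markers 6 were lower, at 725 to 776 CPM in KO against 1360 to 1440 CPM in WT. LT-HSC markers summed to 1950 to 1980 CPM in KO against 2660 to 2720 CPM in WT, with 4 of 11 lower. Of 6 tested granulocyte and monocyte markers 4 were higher (Elane, Ngp, Ltf and S100a8) and 1 lower (Lyz2). Their summed level was 111 to 157 CPM in KO against 169 to 254 CPM in WT, where Ngp and S100a8 were at 0 and Lyz2 had 1200 and 629 counts, against 561 and 307 in KO. Cxcl12, Ngp and S100a8, at 0 in LT-HSC WT, could enter the test only by being higher in KO, so their rises are a description. For the other markers it was not examined which groups reached the count for testing, in this or the other comparisons. The counts of higher markers may therefore include further genes that entered through KO alone. The part of these cells in the changes of Ndufs1, Cox6b2 and the others was not tested.

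In MPP, none of the 79 genes tested passed the threshold by edgeR, nor by DESeq2, where 4.74% of 14902 genes rose in KO and 2.46% fell. At an unadjusted p under 0.05 there were 1 higher and 7 lower genes. The shares of all genes at that unadjusted threshold or by DESeq2 are not given here, for any comparison or list, so these counts have no base to be read against. The log2 fold change was below 0 for 52 of the 79, with a median of -0.08 against -0.01 over all genes, and the median was below 0 under each scaling tried. Their median SE was 0.142. Among complex I genes Ndufs1 had 31.4 and 31.8 CPM in MPP KO against 41.7 and 37.7 CPM in MPP WT (log2 fold change -0.25, SE 0.09, adjusted p = 0.161), and for Ndufa1 it was -0.2 (SE 0.15, adjusted p = 0.463). Atp5a1 had 588 and 562 CPM in KO against 655 and 664 CPM in WT (log2 fold change -0.12, SE 0.07, adjusted p = 0.324). Sdha had 196 and 178 CPM in KO against 225 and 220 CPM in WT (log2 fold change -0.17, SE 0.07, adjusted p = 0.218). The adjusted p was 0.281 for Cox8a (log2 fold change -0.14, SE 0.07) and over 0.8 for Ndufa12, Uqcrc1 and Cox7a2l. In each of Ndufs1, Atp5a1 and Sdha both KO libraries lay below both WT libraries, though none of them passed the test. The share of all genes without overlap between groups is not given here, for this or the other comparisons.

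With the replicate block 6 genes were higher and 27 lower in MPP KO (34.2% of those tested), against 23.7% and 24.8% of all genes. The 27 had a median absolute log2 fold change of 0.216, and the smallest was 0.115. They hold Atp5a1, Sdha, Ndufs1, Cox8a and Cox7a1, which had 0.8 and 0.4 CPM in MPP KO against 1.3 and 2.2 CPM in MPP WT (log2 fold change -1.48). The biological coefficient of variation was 0.00989 with the block and 0.107 without it. The authors' deposited table lists none of the 80 genes as higher in MPP KO and 1 as lower at an FDR under 0.05, against 1006 and 487 of 18904 genes. Of 13 tested erythroid markers 7 were higher in MPP KO, at 1400 to 1500 CPM against 1000 to 1070 CPM in MPP WT, and 4 of 7 granulocyte and monocyte markers, at 660 to 708 CPM against 383 to 422 CPM in MPP WT, where Ltf was at 0.

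**Figure D5:**
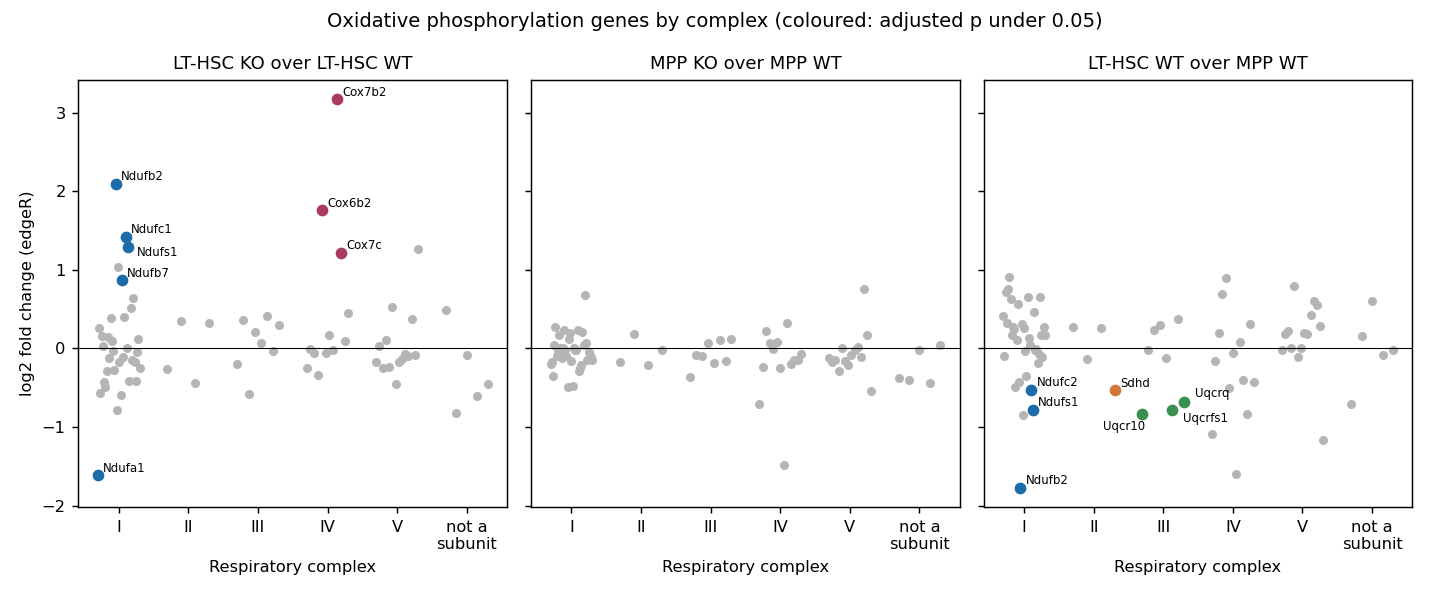
Log2 fold changes from edgeR for each gene tested, by respiratory complex, for LT-HSC KO over WT (left), MPP KO over WT (middle) and LT-HSC WT over MPP WT (right). Coloured, named points had an adjusted p under 0.05: 8 in complexes I and IV on the left, none in the middle and 7 lower ones in complexes I, II and III on the right.

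The change with genotype differed between the populations for 5 of the 80 genes, by the interaction term over all 8 libraries. The difference was higher in LT-HSC than in MPP for Ndufb2, Cox6b2, Ndufs1 and Cox7c and lower for Ndufa1, against 13.6% and 8.5% of 16551 genes. Ndufs1 had a log2 difference of 1.54 (SE 0.2, adjusted p = 0.00288) and Cox6b2 one of 1.67 (SE 0.29, adjusted p = 0.00755), and both passed in all 15 alternatives. Ndufb2 had one of 2.58 (SE 0.66, adjusted p = 0.027), Cox7c one of 1.35 (SE 0.32, adjusted p = 0.0209) and Ndufa1 one of -1.42 (SE 0.35, adjusted p = 0.025). Leaving out 1 library took the adjusted p of these genes over the threshold in some fits, up to 0.0898 for Ndufb2, 0.0944 for Cox7c and 0.103 for Ndufa1. For Ndufb7, Ndufc1 and Cox7b2 the difference did not pass, at adjusted p-values of 0.0814, 0.165 and 0.179. With the block 12 genes were higher and 4 lower, against 21.9% and 19.7% of all genes.

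WT LT-HSC were then compared with WT MPP, 2 populations that also differ in cell number, depth, deposited table and the markers of other cells given above. Of 79 genes tested 7 were lower in LT-HSC (8.86%), against 16.9% of 14660 genes. None was higher by edgeR, against 17.4% of all genes, while DESeq2 called 3 and edgeR's unadjusted p was under 0.05 for 7 (the 3 are Cox6a1, Cox6b1 and Ndufa2). The shares of all genes by DESeq2 or by the unadjusted p are not given here. The median log2 fold change was 0.11 against 0.02 over all genes. Complex III held 3 of the 7 among its 8 genes, complex I held 3 and complex II 1.

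Uqcrfs1, the Rieske iron-sulphur protein of complex III, had 38 and 38 CPM in LT-HSC WT against 64.2 and 68.2 CPM in MPP WT (log2 fold change -0.78, SE 0.14, adjusted p = 0.00891). Uqcr10 had 12.2 and 14.1 CPM in LT-HSC WT against 22.8 and 24.6 CPM in MPP WT (log2 fold change -0.83, SE 0.18, adjusted p = 0.0176). Uqcrq had 27.7 and 35.4 CPM in LT-HSC WT against 53 and 49.7 CPM in MPP WT (log2 fold change -0.69, SE 0.15, adjusted p = 0.0188). Uqcr10 and Uqcrq are small subunits of the same complex. None of the 3 overlapped between populations, a description of genes already called, and the share of all genes without overlap is not given here.

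Sdhd, a membrane anchor of complex II whose promoter is shown above, had 41.6 and 47.2 CPM in LT-HSC WT against 64.7 and 65.5 CPM in MPP WT (log2 fold change -0.53, SE 0.13, adjusted p = 0.0245). In complex I, Ndufs1 had 22.8 and 22.7 CPM in LT-HSC WT against 41.7 and 37.7 CPM in MPP WT (log2 fold change -0.78, SE 0.16, adjusted p = 0.0143). Ndufc2, a membrane arm subunit, had 52.4 and 54.3 CPM in LT-HSC WT against 79 and 77.1 CPM in MPP WT (log2 fold change -0.53, SE 0.13, adjusted p = 0.0224). Ndufb2 had 1.3 and 3.6 CPM in LT-HSC WT against 7.5 and 9.1 CPM in MPP WT (log2 fold change -1.77, SE 0.45, adjusted p = 0.027). LT-HSC WT were below MPP WT in every library for these 4 genes as well, again a description of genes already called.

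Ndufs1 and Ndufb2 thus passed both in this comparison and in LT-HSC KO against LT-HSC WT, which share the LT-HSC WT libraries. For Ndufb2 the pass in LT-HSC KO is a description, since it reached the count for testing there in KO alone. Ndufs1 had 60.7 and 50.8 CPM in LT-HSC KO beside 41.7 and 37.7 CPM in MPP WT, and Ndufb2 had 6.5 and 14.2 CPM in LT-HSC KO beside 7.5 and 9.1 CPM in MPP WT, which overlap; this pair of groups was not tested. The most abundant genes did not pass: the log2 fold change was -0.03 for Atp5a1 (SE 0.13, adjusted p = 0.888), 0.27 for Sdha (SE 0.13, adjusted p = 0.148) and 0.31 for Cox8a (SE 0.17, adjusted p = 0.211). It was 0.33 for Ndufa12 (SE 0.36, adjusted p = 0.509), 0.30 for Uqcrc1 (SE 0.29, adjusted p = 0.448) and -0.02 for Cox7a2l (SE 0.19, adjusted p = 0.937). Cox6b1 had 180 and 81.6 CPM in LT-HSC WT against 78.4 and 66.7 CPM in MPP WT (log2 fold change 0.89, SE 0.38, adjusted p = 0.115), with both LT-HSC libraries higher but far apart. Without MPP WT replicate 2 none of the 7 passed by edgeR, and without MPP WT replicate 1 Ndufb2 and Uqcrfs1 did, beside 7 higher genes. The calls changed without LT-HSC WT replicate 2 as well. The share of all genes called in the fits with 1 library left out is not given here. With the block there were 18 higher and 15 lower, against 27.5% and 25.8% of all genes, and the 15 include the 7.

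Other genes of the pathway were followed in 5 lists, beside 22.5% of all genes that rose in LT-HSC KO and 10.9% that fell, or 30.7% and 25.6% with the replicate block. Of 9 subunits and carriers outside the 80 genes, 1 rose: Atpif1, the inhibitor of the ATP synthase, by 0.62 on the log2 scale (adjusted p = 0.0224). With the block 3 rose and 1 fell. Of 22 assembly factors tested, 3 rose and 1 fell, or 5 and 4 with the block. The 3 that rose without the block act in complex I assembly: Nubpl (log2 fold change 2.07, adjusted p = 0.00112), Ndufaf3 (1.24, adjusted p = 0.046) and Ndufaf4 (0.95, adjusted p = 0.0358). The Nubpl model spans 215 kb, and the background rate equals 28.7% of its KO count. Cox18, which inserts a complex IV core subunit into the membrane, fell by 1.28 on the log2 scale (adjusted p = 0.0154).

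Of 13 regulators of mitochondrial biogenesis, 2 rose and 1 fell in LT-HSC KO, or 4 and 6 with the block. Tfb1m, a mitochondrial ribosomal RNA methyltransferase, rose by 1.14 (adjusted p = 0.012) and Ppargc1b, a coactivator, by 0.67 (adjusted p = 0.0493). The Ppargc1b model spans 102.3 kb, and the background rate equals 17.8% of its KO count and 9.09% of that of Tfb1m. Esrra, a nuclear receptor that drives respiratory genes, fell by 0.88 on the log2 scale (adjusted p = 0.0442). Of 21 genes of the citric acid cycle and pyruvate dehydrogenase 1 rose, Dlst by 0.52 (adjusted p = 0.0292), while with the block 3 rose and 9 fell. None of 4 nucleotide, phosphate and proton carriers passed without the block, by DESeq2 or with an unadjusted p under 0.05, and with the block 1 rose and 1 fell. DESeq2 called 1 higher and 1 lower assembly factor, 1 higher regulator and none in the other lists. The median log2 fold changes of the 5 lists ran between -0.30 and 0.18, beside 0.03 over all genes.

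In MPP, no gene of these 5 lists passed by edgeR without the block or by DESeq2. By edgeR's unadjusted p under 0.05 there were 3 lower of 9 outside subunits, 1 higher of 23 assembly factors, 1 higher and 2 lower of 13 regulators, 4 lower of 20 citric acid cycle and pyruvate dehydrogenase genes and 1 lower of 4 carriers. The share of all genes at that unadjusted threshold is not given here. The log2 fold change was below 0 for 9 of the 9 outside subunits (median -0.20) and for 18 of the 20 citric acid cycle and pyruvate dehydrogenase genes (median -0.12). With the block 0 of those 9 were higher and 6 lower, and 2 of those 20 were higher and 14 lower. The block also gave 6 higher and 2 lower assembly factors, 3 higher and 6 lower regulators and 1 higher and 3 lower carriers, beside 23.7% and 24.8% of all genes.

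Between WT LT-HSC and WT MPP, 17.4% of all genes were higher and 16.9% lower in LT-HSC, or 27.5% and 25.8% with the block. Here 2 of the 9 outside subunits were lower in LT-HSC: Cycs, which encodes cytochrome c (log2 fold change -0.78, adjusted p = 0.0144), and Ndufab1, the mitochondrial acyl carrier protein (-0.62, adjusted p = 0.0482). With the block 2 were higher and 3 lower. Of 23 assembly factors 2 were higher and 3 lower, or 4 and 5 with the block. Sdhaf1, an assembly factor of complex II, had 0 and 1 counts in LT-HSC WT against 46 and 39 in MPP WT, and reached the count for testing in MPP WT alone. Ndufaf4 was lower by a log2 fold change of -1.12 (adjusted p = 0.0142) and Tmem70, an ATP synthase assembly factor, by -0.68 (adjusted p = 0.0265), while Cox18 (0.88, adjusted p = 0.0417) and Acad9 (0.51, adjusted p = 0.0321) were higher.

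Among the citric acid cycle and pyruvate dehydrogenase genes 3 of 21 were higher in LT-HSC WT and 1 lower, or 6 and 3 with the block. The 3 were Pdk2, Pdk3 and Pdk4, whose products are kinases that inhibit pyruvate dehydrogenase. Pdk4 had 10 and 18 counts in LT-HSC WT against 3 and 1 in MPP WT, and reached the count for testing in LT-HSC WT alone, so its difference is a description. Pdk2 had a log2 fold change of 1.01 (adjusted p = 0.0229) and Pdk3 one of 0.58 (adjusted p = 0.0272), while Pdk1 had one of -0.30 that did not pass (adjusted p = 0.112). Idh2, a mitochondrial isocitrate dehydrogenase, was lower (log2 fold change -0.53, adjusted p = 0.0371). Of the 13 regulators Polg, the mitochondrial DNA polymerase, was higher (0.73, adjusted p = 0.0116), and Gabpa, the DNA-binding subunit of GABP (-0.90, adjusted p = 0.00412), and Tfb1m (-0.68, adjusted p = 0.0496) were lower, and with the block 2 were higher and 5 lower. None of the 4 carriers passed by edgeR without the block, 1 was lower at its unadjusted p under 0.05, DESeq2 called 1 lower, and with the block 2 were higher and 1 lower.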

How the data were processed

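The reads were processed with CASAVA and TopHat on mm9, per the submitters' processing notes, which name neither read counter nor annotation. Raw counts per Ensembl gene were deposited by the authors in 1 table for LT-HSC and 1 for MPP, and all coordinates marked mm9 are theirs. The same tables hold the authors' log2 fold change and mean log2 CPM, a likelihood ratio score, and p-values with their FDR, all named in the file headers, and of these the fold change and FDR were used. Columns were matched to libraries on genotype and replicate number, with 0 left unmatched.

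Counts were analysed with edgeR 4.0.16 in R 4.3.3 (filterByExpr, TMM, quasi-likelihood test, two-sided, Benjamini-Hochberg adjustment over all genes tested, threshold 0.05), after tests on simulated data. Each population was fitted alone. The WT comparison used the 4 WT libraries and the interaction all 8, over genes in both tables. Printed CPM are scaled by the library total; at this depth a count of 3, the floor, is 0.5475 to 0.6028 CPM in LT-HSC and 0.2399 to 0.2515 CPM in MPP. Exon lengths are those of the merged exons of all GENCODE M21 transcripts of a gene, by Ensembl ID. DESeq2 1.42.0, other scalings, no filter, 1 library left out, all libraries in 1 model, thinned MPP counts and the replicate block were alternatives.

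The main fits did not pair libraries, and the replicate numbers were treated as pairing them only in the alternative fits with the block. Those fits were run since the gaps between replicates 1 and 2 correlated at over 0.1 in all 6 pairs of groups. That reason comes from the data, not the labels. The 80 genes and the lists were chosen with earlier results of these data known. Named with values were, per complex and comparison, up to 4 called genes in each direction, the most abundant gene, isoform pairs, and up to 3 called genes per direction and list. Cox6a2, Cox8b, Cox8c and Ndufa4l2 were not analysed here. Ndufs1, Ndufa1, Sdha and Atp5o where not called, the genes of the replicate gaps and Pdk1 were named after their values were seen.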

Additional observations from a re-analysis of the deposited data

Results flagged for a closer look

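The KO over WT change differed between LT-HSC and MPP for 5 genes, by the interaction term of edgeR's quasi-likelihood test with Benjamini-Hochberg adjustment. For Ndufb2 the log2 difference was 2.58, with a log2 fold change of 2.09 in LT-HSC and -0.49 in MPP. For Cox6b2 it was 1.67, with 1.76 in LT-HSC and 0.08 in MPP. For Ndufs1 it was 1.54, with 1.29 in LT-HSC and -0.25 in MPP. For Cox7c it was 1.35, with 1.22 in LT-HSC and -0.14 in MPP. For Ndufa1 it was -1.42, with -1.61 in LT-HSC and -0.20 in MPP. In each gene the LT-HSC fold change passed the test on its own and the MPP one did not. Ndufb2 reached the count for testing in LT-HSC KO but not in LT-HSC WT, so its pass in LT-HSC is a description.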

How the results depend on the processing

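The replicate block moved every count of oxidative phosphorylation genes by over 1.5 times: to 18 higher and 16 lower in LT-HSC KO, 6 and 27 in MPP KO, 18 and 15 in LT-HSC WT against MPP WT, and 12 and 4 in the interaction. In LT-HSC KO the 7 higher genes became 11 with abundant genes centred, 4 with no filter on low counts, and 19 with background subtracted and the replicate block together; the 1 lower gene became 4 with all 8 libraries in 1 model and 3 with background subtracted and the block. In the WT comparison the 0 higher genes became 1 with total counts, 1 with no filter, 3 by DESeq2, 2 in 1 model of all 8 libraries, 1 with MPP counts thinned and 19 with background subtracted and the block; the 7 lower genes became 11 in the model of all 8 and 13 with background subtracted and the block. The cause was not tested, and background subtraction was chosen after seeing the data.

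Leaving out 1 library at a time gave 4 to 14 higher and 1 to 15 lower genes in LT-HSC KO, 0 and 0 in MPP KO, 0 to 20 higher and 0 to 12 lower in the WT comparison, and 2 to 6 higher and 0 to 2 lower in the interaction, where the lone library of a group is assumed to vary like the others. In LT-HSC KO the higher genes were most without LT-HSC WT replicate 1 and fewest without LT-HSC KO replicate 1. The lower genes were most without LT-HSC WT replicate 2. The share of all genes called in each fit with 1 library left out is not given here, so a change particular to these genes cannot be told from a change in all calls. The interaction had 2 higher without MPP KO replicate 1 or MPP WT replicate 2, 6 higher and 2 lower without LT-HSC WT replicate 2, and 0 lower without either LT-HSC KO library, either MPP WT library or MPP KO replicate 1. Over all genes, the higher share of calls was 81.2% with abundant genes centred against 67.3% in LT-HSC KO, 48.6% with total counts against 65.9% in MPP KO, and 73.8% with abundant genes centred against 61.6% in the interaction. With no filter Ndufb2, Ndufc1 and Ndufb7 had adjusted p-values of 0.0558, 0.0559 and 0.0587 in LT-HSC KO, and Ndufb2 had 0.0564 in the WT comparison. None of the genes traced through the alternatives changed direction while called. With 2 libraries per group and 4976459 to 5479731 counts per LT-HSC library, genes of a few CPM such as Ndufb2 and Cox7b2 rest on few counts (35 and 72 for Ndufb2 in LT-HSC KO).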
